A study of Arabidopsis thaliana with 6 samples.

Results

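The 9 genes described here encode 6 subunits of the Arabidopsis Paf1 complex (Paf1c) and 3 further proteins that act on elongating RNA polymerase II. They were taken by locus from the 33554 genes of the deposited tables: *VIP3* (AT4G29830), *VIP4* (AT5G61150), *VIP5* (AT1G61040), *VIP6* (AT2G06210, also called *ELF8*), *ELF7* (AT1G79730), *CDC73* (AT3G22590, named *PHP* in the reference annotation), *SPT16* (AT4G10710), *SSRP1* (AT3G28730, named *HMG* in the reference annotation) and *TFIIS* (AT2G38560). The rule is a list of loci with no threshold on a measured value, though it was drawn up with earlier results of these data known, and all 9 passed the filter on low counts. Their mRNAs were compared in dissected inflorescence shoot apices of wild type (WT, ecotype Col-0, no mutation) and of *vip3-1*, a T-DNA insertion line in the same ecotype that the series names a null allele of *VIP3*. No plant received a treatment, no ages are given, and both genotypes were grown at 21°C in short days before a move to 16°C with light throughout. Flowers past stage 4 were cut away, each tube held 30 to 35 apices, and the RNA of 2 tubes made each of the 3 libraries per genotype. The methods call these technical triplicates, and nothing says that tubes came from separately grown plants. The p-values therefore set the genotypes against the spread between pools, and growth or harvest cannot be told apart from genotype. The mutant is a single insertion allele, carried by every cell of the plant.

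Paf1c travels with RNA polymerase II along transcribed genes and is known in yeast, animals and plants for its link to histone marks of active genes, among them H2B ubiquitination and H3K4 and H3K36 methylation. In Arabidopsis its loss is known for early flowering and reduced expression of *FLC*, a repressor of flowering. VIP4, VIP5, VIP6, ELF7 and CDC73 are the plant counterparts of yeast Leo1, Rtf1, Ctr9, Paf1 and Cdc73. VIP3 is a WD40 repeat protein that corresponds to the human subunit SKI8 (WDR61), which in animals also belongs to the cytoplasmic SKI complex of RNA decay. The authors state that Arabidopsis VIP3, unlike VIP6, also belongs to a complex of mRNA turnover. SPT16 and SSRP1 form FACT, a histone chaperone that opens nucleosomes ahead of the polymerase and restores them behind it. TFIIS lets a backtracked polymerase cleave its transcript and resume.

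The libraries held between 50040048 and 69033269 estimated fragment counts in WT and between 51944079 and 53519921 in *vip3-1*, so that even the lowest value of any of the 9 genes, for *VIP3* in *vip3-1* replicate 1, rested on 307 counts. Levels are given as CPM, counts relative to the library size after scaling by TMM (trimmed mean of M values, from edgeR). Of 9 meristem and primordium markers all were detected in each library, with summed levels of 974 to 1213 CPM in WT and 1393 to 1473 CPM in *vip3-1*. WT replicate 3 stood apart: 14 markers of older flowers, most of them tapetum and pollen wall genes, summed to 1121 CPM there, against 64.5 and 67.8 CPM in the other WT libraries and 33.2 to 82.9 CPM in *vip3-1*. In 3 libraries 1 of these 14 markers was at 0, and in the others none was. The summed level of 15 dividing cell markers was 1088 CPM in WT replicate 3, 1493 and 1566 CPM in the other WT libraries and 1651 to 1877 CPM in *vip3-1*. In such bulk tissue more mRNA per cell and more cells of the kind that express a gene cannot be told apart. For these reasons calls of the 9 genes and of several gene lists are also given without WT replicate 3, but not those of the markers.

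The 9 genes lie on all 5 chromosomes (positions in TAIR10.1, the RefSeq annotation). Since 8 of them shifted in the same direction, the bases just upstream of their annotated starts were read for letters they might have in common. TGGGCC and TGGGCT, the short elements known in plants as site II or TCP-type elements of growth-related genes, were searched on both strands from 250 bases before to 50 bases after the annotated start; the 2 elements differ in their last base and so cannot match the same place on the same strand, though TGGGCC can overlap its own reverse complement. TGGGCC was found for 6 of the 9 genes, *VIP3*, *VIP4*, *ELF7*, *CDC73*, *SPT16* and *TFIIS*, and in 15.5% of 27444 protein-coding promoters of the same length. TGGGCT was found for 4 of the 9, *VIP4*, *CDC73*, *SPT16* and *TFIIS*, and in 14.2% of all promoters. At least 1 of the elements occurred for 6 of the 9 and in 21.7% of promoters. The stretches of 5 of these 6 genes are shown because they carry the shared letters. Each runs 5′ to 3′ on the gene's own strand and ends at the base before the annotated start, with the matches to either element, on either strand, in capitals.
VIP3: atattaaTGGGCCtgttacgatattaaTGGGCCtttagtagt
VIP4: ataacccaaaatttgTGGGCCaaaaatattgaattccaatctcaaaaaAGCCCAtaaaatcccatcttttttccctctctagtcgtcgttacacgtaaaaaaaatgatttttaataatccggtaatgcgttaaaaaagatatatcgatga
CDC73: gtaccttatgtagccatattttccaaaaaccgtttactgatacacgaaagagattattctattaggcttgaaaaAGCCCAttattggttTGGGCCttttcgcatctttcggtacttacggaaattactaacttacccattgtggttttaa
SPT16: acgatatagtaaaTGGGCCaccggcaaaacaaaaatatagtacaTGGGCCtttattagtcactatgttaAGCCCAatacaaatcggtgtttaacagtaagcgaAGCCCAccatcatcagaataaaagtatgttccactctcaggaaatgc
TFIIS: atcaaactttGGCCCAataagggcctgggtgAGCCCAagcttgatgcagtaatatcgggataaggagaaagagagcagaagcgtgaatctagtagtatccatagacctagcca
The *VIP3* stretch (chr4:14597517-14597558, plus strand) is only 42 bases long because it fills the whole gap to the divergent gene *CFIM-25*, and it holds TGGGCC at 35 and again at 15 bases before the start. The stretches of *VIP4* (chr5:24607726-24607875, minus strand), *CDC73* (chr3:8003748-8003897, plus strand) and *SPT16* (chr4:6606358-6606507, minus strand) are 150 bases long, and that of *SPT16* holds 4 matches. The *TFIIS* stretch (chr2:16134430-16134542, plus strand) is 113 bases long, where the neighbouring gene begins, and shows 2 of its 3 matches. *ELF7* has TGGGCC at 16 bases before its start and the reverse complement at 2 bases before it, but there it overlaps the neighbouring gene and no stretch is shown. No match was found for *VIP5*, *VIP6* or *SSRP1*, which are also among the 8 genes that rose in *vip3-1* (below). Whether these elements bear on the mRNA levels was not tested. AAACCCTA, a telo-box type element found in 6.22% of promoters, and TTTCCCGC, an E2F-type element found in 0.798%, were absent from all 9 windows.

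*VIP3* was examined first, as the mutated gene. It spans chr4:14597559-14599300 on the plus strand with 2 exons and a transcript of 1278 bases. Its mRNA reached 40.8, 41.7 and 40.1 CPM in WT replicates 1, 2 and 3 and 5.96, 7.41 and 7.30 CPM in the *vip3-1* replicates. The genotypes were far apart, and no library went against its label. *VIP3* thus had a log2 fold change of -2.57 (SE 0.099, adjusted p = 0.000192, edgeR's quasi-likelihood test), and 16.9% of the WT level remained. These reads are summed over the gene, so a transcript broken by the insertion cannot be told apart from a full one. *VIP3* shares its last 85 bases with *MTO2* on the opposite strand, and 616 bases with an opposite long non-coding RNA (AT4G08225). The strand setting of the counting is not given in the sources used here, so reads in these bases cannot be assigned with certainty. *MTO2* (threonine synthase) itself was at 69.02 to 80.6 CPM in WT and 64.7 to 76.7 CPM in *vip3-1*, with a log2 fold change of -0.08 (adjusted p = 0.534, edgeR). Of the 6 nearest annotated genes, 3 on each side of *VIP3*, 1 was called, where 30.7% of all genes were called in either direction. This was *EMB2757*, with 14.6, 16.4 and 15.0 CPM in WT against 12.1, 12.7 and 12.3 CPM in *vip3-1* (log2 fold change -0.31, adjusted p = 0.0293, edgeR). That call was missed without WT replicate 2 (adjusted p = 0.0899) and without *vip3-1* replicate 1, 2 or 3 (0.0876, 0.0794 and 0.0763), and in the 3 limma fits on FPKM (0.164, 0.164 and 0.232). *EMB2757* overlaps AT4G29850, another of the 6, on the same strand. *CFIM-25*, which faces *VIP3* across the 42 bases, encodes a subunit of a pre-mRNA cleavage factor and had a log2 fold change of -0.03 (SE 0.099, adjusted p = 0.812, edgeR).

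**Figure D1:**
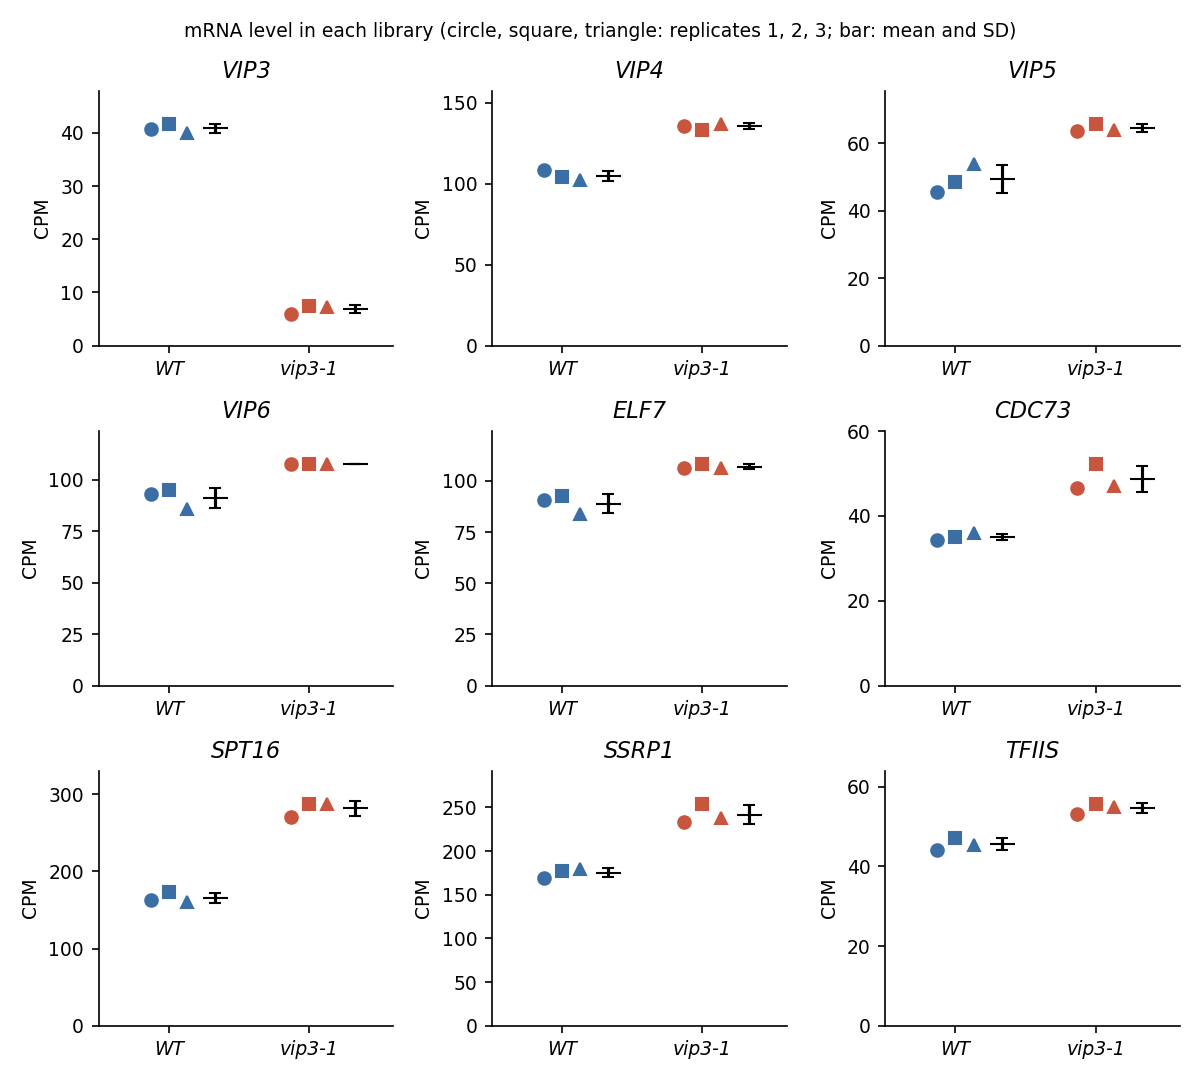
mRNA level (CPM, axis from 0) of each of the 9 genes in the 3 WT and 3 *vip3-1* libraries, with the mean and SD of each genotype as a bar. *VIP3* fell from about 40.9 to 6.89 CPM on average, and in the other 8 panels each *vip3-1* point lies above each WT point. Of all tested genes 25.3% had this second pattern.

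All 5 other Paf1c subunit genes rose in *vip3-1*, each by less than 1.4-fold. Over all 20690 genes tested, 30.7% were called at an adjusted p under 0.05 and 14.6% were called higher in *vip3-1*, so that calls of this kind were common in these libraries. In the same genes, 25.3% had every *vip3-1* library above every WT library, as all 5 subunit genes had. The median log2 fold change of the 5 was 0.37, against -0.02 over all genes tested.

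*CDC73* (chr3:8003898-8005902, plus strand, 3 exons), whose product is the plant parafibromin, gave 34.4, 34.9 and 35.9 CPM in WT and 46.6, 52.3 and 47.1 CPM in *vip3-1*. The WT libraries were close together and well below the lowest mutant library. This was the largest rise within the complex, with a log2 fold change of 0.47 (SE 0.070, adjusted p = 0.00601, edgeR). *VIP4* (chr5:24603634-24607725, minus strand, 11 exons), the Leo1 counterpart, gave 108, 104 and 102 CPM in WT and 136, 133 and 137 CPM in *vip3-1*. Its log2 fold change was 0.37 (SE 0.056, adjusted p = 0.00659, edgeR), and the genotypes did not overlap. *CDC73* and *VIP4* passed the threshold in all 16 alternative settings, each single library left out included.

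*VIP5* (chr1:22483104-22485969, plus strand, 2 exons), the Rtf1 counterpart, gave 45.7, 48.4 and 53.9 CPM in WT and 63.7, 65.8 and 64.1 CPM in *vip3-1*. WT replicate 3 was the highest of the WT libraries, yet still lay below all mutant libraries. The log2 fold change was 0.39 (SE 0.078, adjusted p = 0.0139, edgeR). The call was missed when *vip3-1* replicate 1, 2 or 3 was left out, with adjusted p-values of 0.0542, 0.0675 and 0.0514.

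*ELF7* (chr1:30000538-30004083, minus strand, 12 exons), the Paf1 counterpart, gave 90.5, 92.4 and 83.7 CPM in WT and 106, 108 and 106 CPM in *vip3-1*. *VIP6* (chr2:2428903-2436687, minus strand, 24 exons), the Ctr9 counterpart and the longest of the 9 genes, gave 93.2, 94.9 and 85.7 CPM in WT and 108 CPM in each *vip3-1* library. In both genes WT replicate 3 was the lowest library, and the genotypes did not overlap. The log2 fold changes were 0.27 for *ELF7* (SE 0.062, adjusted p = 0.0216, edgeR) and 0.24 for *VIP6* (SE 0.062, adjusted p = 0.0301, edgeR). These are small shifts: 25.6% and 27.5% of all tested genes had a higher log2 fold change than *ELF7* and *VIP6*. They were also the least stable calls. Of the 16 alternatives, *ELF7* passed in 8 and *VIP6* in 6, and the direction was kept in all. *ELF7* was not called without WT replicate 1 (adjusted p = 0.0594) or without *vip3-1* replicate 1, 2 or 3 (0.0761, 0.0918 and 0.0657). *VIP6* was not called without WT replicate 1 or 2 (0.0732 and 0.0610) or without *vip3-1* replicate 1, 2 or 3 (0.0999, 0.109 and 0.0890). In the FPKM tables, tested with limma on log2(FPKM + 1), *ELF7* differed by 0.26 with an adjusted p of 0.241 and *VIP6* by 0.23 with an adjusted p of 0.0834, where 19.4% of all genes were called. The *ELF7* FPKM were 38.6, 49.7 and 44.7 in WT and 44.1, 58.7 and 57.5 in *vip3-1*. They were lowest in replicate 1 of both genotypes, and the limma fit took no account of replicate number. At its start *ELF7* overlaps the neighbour AT1G79740 by 27 bases on the same strand.

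The largest rise among the 9 was that of *SPT16*, a FACT gene. *SPT16* (chr4:6601903-6606357, minus strand, 2 exons) gave 163, 173 and 160 CPM in WT and 271, 288 and 287 CPM in *vip3-1*. The lowest mutant library was thus far above the highest WT library, and the log2 fold change was 0.77 (SE 0.069, adjusted p = 0.00154, edgeR), or 1.70-fold. Among all tested genes 8.38% had a higher log2 fold change. *SSRP1* (chr3:10784888-10788729, plus strand, 16 exons), its partner in FACT, gave 169, 177 and 180 CPM in WT and 233, 254 and 237 CPM in *vip3-1*. The genotypes were again separate, with a log2 fold change of 0.46 (SE 0.069, adjusted p = 0.00611, edgeR). Both genes passed in all 16 alternatives. *SSRP1* shares 32 bases with *CYP81D11* on the other strand, a gene with at most 14 counts in any library.

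The rise of the FACT partners was also compared within libraries. The ratio of *SPT16* to *SSRP1* CPM was 0.963, 0.977 and 0.888 in WT and 1.16, 1.13 and 1.21 in *vip3-1*, without overlap. The difference of the means was 0.224, and a two-sided exact permutation test over the 20 splits of 6 libraries gave p = 0.1, the smallest value this design allows, so that the test cannot pass a threshold of 0.05 here.

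*TFIIS* (chr2:16134543-16136695, plus strand, 2 exons) gave 44.2, 47.1 and 45.5 CPM in WT and 53.2, 55.7 and 54.9 CPM in *vip3-1*. The groups were narrow and separate, with a log2 fold change of 0.26 (SE 0.060, adjusted p = 0.0209, edgeR). The call was missed without WT replicate 1 (adjusted p = 0.0684) and without *vip3-1* replicate 1, 2 or 3 (0.0612, 0.0908 and 0.0706), and *TFIIS* passed in 11 of the 16 alternatives.

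Without WT replicate 3, the library with older flower mRNAs, all 5 of the other Paf1c genes and all 3 of *SPT16*, *SSRP1* and *TFIIS* were called higher, where 18.9% of all genes were. With 1 library left out in turn, 3, 4 and 5 of the 5 Paf1c genes were called without WT replicate 1, 2 or 3 and 2 each time without a *vip3-1* library. The share of all genes called in either direction was then 21.3%, 19.8% and 38.5% without WT replicate 1, 2 or 3 and 15.4%, 12.7% and 17.7% without *vip3-1* replicate 1, 2 or 3. Markers of the apex moved too. Of the 9 meristem and primordium markers 6 were called higher and 1 lower, with a median log2 fold change of 0.39, close to the 0.37 of the 5 Paf1c genes; *CLV3* (2.33), *STM* (0.59) and *LFY* (0.47) were the highest and *UFO* (-0.46) the lowest. Of the 15 dividing cell markers 2 were called higher, *CYCB1;1* (0.59) and *CYCB2;2* (0.37), a share near the 14.6% of all genes, although their summed level was higher in each *vip3-1* library than in each WT library and their median was 0.34. All these marker calls are from the 6 libraries together, where WT replicate 3 had the lowest summed level of dividing cell markers (1088 CPM). They were not read without that library. The part of a different make-up of the apices in the higher Paf1c, FACT and *TFIIS* levels was not tested. Shifts of this size also moved with the scaling of the libraries. With library sizes used without TMM, the median over all genes moved from a log2 fold change of -0.02 to -0.11. *VIP6*, *ELF7* and *TFIIS* then differed by 0.14, 0.17 and 0.17 and were no longer called (adjusted p = 0.0949, 0.0560 and 0.0757, edgeR), so 3 of the 5 subunit genes and 2 of the other 3 genes remained above the threshold. Under this scaling 11% of all tested genes were called higher and 23.1% lower, against 14.6% and 16.1% with TMM. Scaled to 12 reference genes instead, all 8 genes were called higher, with 15% of all genes called higher. Against the geometric mean of these reference genes within the same library, each *vip3-1* library stood above each WT library for all 8. The share of all genes with this pattern was not computed for that ratio. In CPM it was 25.3%.

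**Figure D2:**
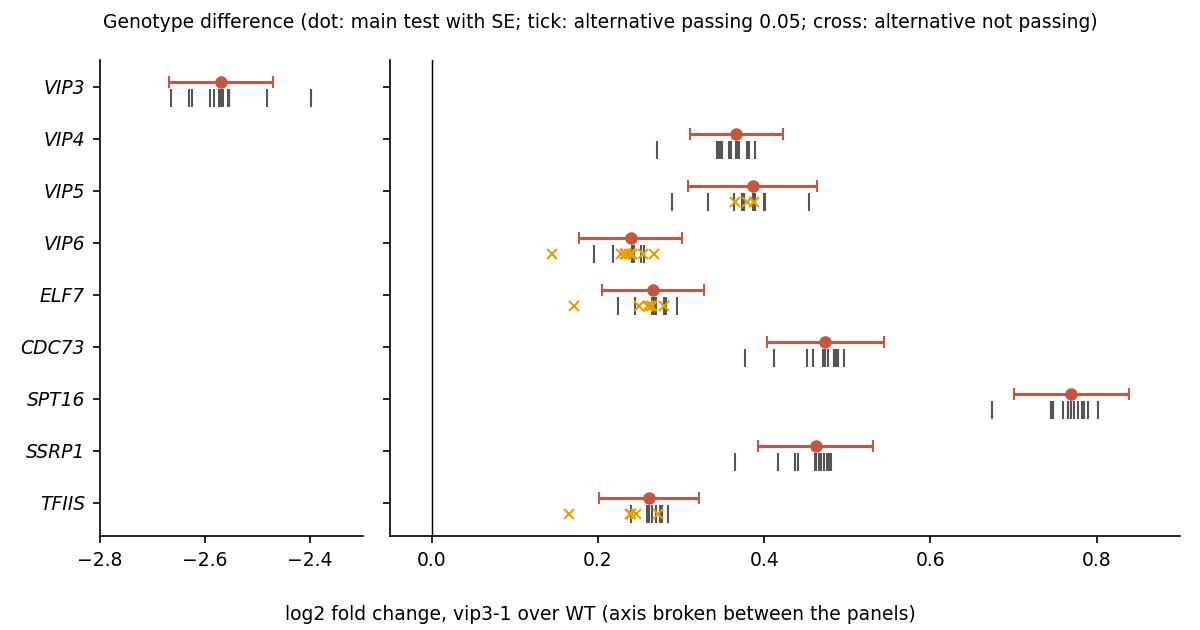
log2 fold change of *vip3-1* over WT for the 9 genes, on an axis broken between *VIP3* and the others. Dots with bars are the edgeR estimates and their SE, ticks are alternative settings with an adjusted p under 0.05 and crosses those without, and every mark of the 8 other genes lies above 0, with the edgeR estimates between 0.24 and 0.77.

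Levels of different genes were compared per length, in FPKM as the authors computed them. In WT, *SSRP1* was the most abundant of the 9 at 83.8 ± 2.08 FPKM (SD, n = 3). *VIP4* (48.7 ± 0.634), *SPT16* (45.8 ± 2.69), *ELF7* (44.3 ± 5.57) and *VIP3* (38.4 ± 4.17 FPKM) followed, and neighbours in this order overlapped between libraries. *TFIIS* (30.3 ± 0.633) and *CDC73* (29.3 ± 2.68 FPKM) overlapped as well, and *VIP6* (26.4 ± 1.63) and *VIP5* (22.4 ± 1.64 FPKM) were lowest, each apart from the gene above it. The Paf1c mRNAs in WT apices thus lay within a narrow band below *SSRP1*. In *vip3-1*, *SSRP1* reached 116 ± 5.38 FPKM and *SPT16* moved past *VIP4* to 78.6 ± 5.64 FPKM, without overlap with *VIP4* at 62.1 ± 3.85 FPKM. *ELF7* followed at 53.4 ± 8.14 FPKM, overlapping with *VIP4* and with *CDC73* at 41.0 ± 3.40 FPKM. *TFIIS* (36.8 ± 0.252), *VIP6* (31.2 ± 0.175), *VIP5* (29.3 ± 0.608) and *VIP3* (6.55 ± 1.49 FPKM) followed with no overlap between neighbours. When CPM were divided by the length of the longest reference transcript instead, *CDC73* fell below *VIP6* in both genotypes (19.5 against 25.5 CPM per kilobase in WT), so the order of these genes depends on the transcript length used.

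A ratio between genes of the same library does not depend on library scaling. Each gene was divided by the geometric mean of the other Paf1c genes without *VIP3*, on the log2 scale. In FPKM, *SPT16* moved from 0.49 ± 0.06 in WT to 0.92 ± 0.06 in *vip3-1* (SD, n = 3) and *SSRP1* from 1.36 ± 0.03 to 1.49 ± 0.03, both without overlap. *VIP3* moved from 0.23 to -2.69. The ratios of *VIP4*, *VIP5*, *VIP6*, *ELF7*, *CDC73* and *TFIIS* overlapped between the genotypes, with differences between -0.13 and 0.17. In FPKM no ratio among the 5 subunit mRNAs thus left the range of the WT libraries altogether. For *CDC73* only WT replicate 1 (0.0023) reached into the mutant range. The other WT ratios of *CDC73* (-0.34 and -0.26) lay below its lowest mutant ratio (-0.20). Replicate 1 had the highest *CDC73* and the lowest *ELF7* ratio within each genotype. The overlap of these genes therefore does not show that their ratios were unchanged. From counts, which vary less between replicates for some of these genes, *CDC73* stood above its WT ratios by 0.16, and *VIP6* and *TFIIS* stood below theirs by 0.13 and 0.09, again without overlap. No test was run on these ratios.

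**Figure D3:**
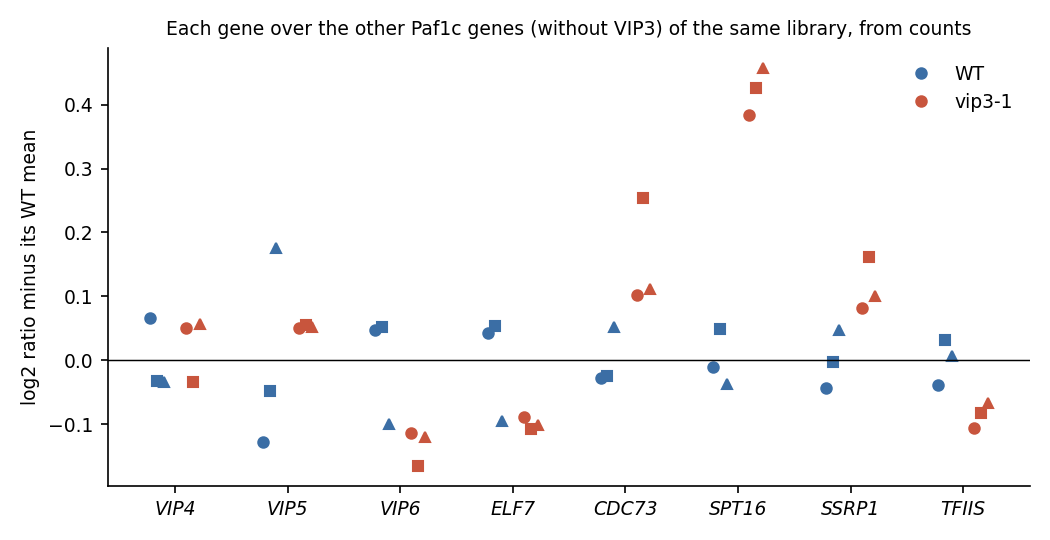
log2 ratio of each gene to the geometric mean of the other Paf1c genes (*VIP3* left out) in the same library, from counts, as the difference from the WT mean, with 3 points per genotype. *SPT16* stands highest in *vip3-1*, at 0.42 above its WT mean on average, *VIP4*, *VIP5* and *ELF7* overlap, and *VIP6* and *TFIIS* lie slightly below WT.

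The spread between replicates was compared with that of other genes. The SD of log2 CPM in *vip3-1* was between 0.0012 (*VIP6*) and 0.091 (*CDC73*) for the 8 genes, and 0.175 for *VIP3*, whose counts were much lower there than in WT. The median over the 7604 genes at a mean log2 CPM of 5 or more was 0.078. In WT it was between 0.029 (*VIP3*) and 0.122 (*VIP5*), with a median of 0.130 over the same genes. All 9 genes thus varied less than the median gene in WT, and 7 of the 9 did in *vip3-1*, where *VIP3* and *CDC73* varied more. The WT median includes WT replicate 3, the library that stood apart, and the spread was not computed without it. *VIP3*, low in *vip3-1*, has a mean log2 CPM below 5 and is not among the 7604 genes.

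Other factors that travel with the polymerase were read from the same fit. Of 11 listed elongation factor genes, 3 were called higher (14.6% of all genes were), none was called lower, and the median log2 fold change was 0.18. The 3 encode SPT4 and SPT5 proteins, the partners of the heterodimer DSIF that clamps the polymerase onto DNA. AT5G08565, an Spt4-like gene, gave 10.02, 9.46 and 8.77 CPM in WT and 14.2, 17.0 and 17.6 CPM in *vip3-1* (log2 fold change 0.79, SE 0.111, adjusted p = 0.00519, edgeR). *SPT42*, the other SPT4 gene, gave 48.0, 48.3 and 50.8 CPM in WT and 66.2, 66.8 and 60.1 CPM in *vip3-1* (log2 fold change 0.39, adjusted p = 0.00927). *GTA2*, the abundant SPT5 gene, gave 158, 166 and 151 CPM in WT and 199, 211 and 213 CPM in *vip3-1* (log2 fold change 0.39, adjusted p = 0.00927). The SPT4 genes are related copies, and how reads that fit both were shared out is not given in the sources used here. In each of the 3 genes every *vip3-1* library lay above every WT library, as in 25.3% of all tested genes. Each of the 3 was called whichever library was left out. On FPKM, *SPT42* was not called in any of the 3 limma fits (adjusted p = 0.0668, 0.0669 and 0.0832) and *GTA2* not in the unfiltered fit (adjusted p = 0.0545). *GTB1*, the abundant SPT6 gene, differed by 0.20 (adjusted p = 0.0626) and *IWS1* by 0.12 (adjusted p = 0.168, edgeR). Without WT replicate 3, 7 of the 11 genes were called higher, where 18.9% of all genes were, and DESeq2, which called 39.1% of all genes, called 6, of which 5 were higher.

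The list also holds 3 low-abundance genes, which are named here after their values were seen. None of them was called. AT2G34210, annotated as an Spt5 elongation factor, had 18, 17 and 202 counts in WT and 29, 19 and 51 counts in *vip3-1*. *IWS2* had 15, 14 and 168 counts in WT and 4, 6 and 15 counts in *vip3-1*. Both were high in WT replicate 3, the library with high older flower markers, with adjusted p-values above the threshold (0.429 and 0.116, edgeR). AT1G63210, annotated as an Spt6 elongation factor (chr1:23443688-23447354), had 1, 7 and 191 counts in WT and 265, 269 and 287 counts in *vip3-1*. Here too WT replicate 3 stood out, but all *vip3-1* libraries were higher still, at 5.14 to 5.62 CPM against 0.0142, 0.123 and 3.63 CPM. The log2 fold change was 2.11 (SE 1.39, adjusted p = 0.276, edgeR). Without WT replicate 3 it was 6.34 (adjusted p = 0.00122), with the replicate number as a block 3.90 (adjusted p = 0.0945), and over its 15 alternatives the adjusted p was between 0.00122 and 0.429. With 1 and 7 counts in the remaining WT libraries the size of this change is poorly fixed. The part of older flower tissue in the WT replicate 3 values was not tested.

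**Figure D4:**
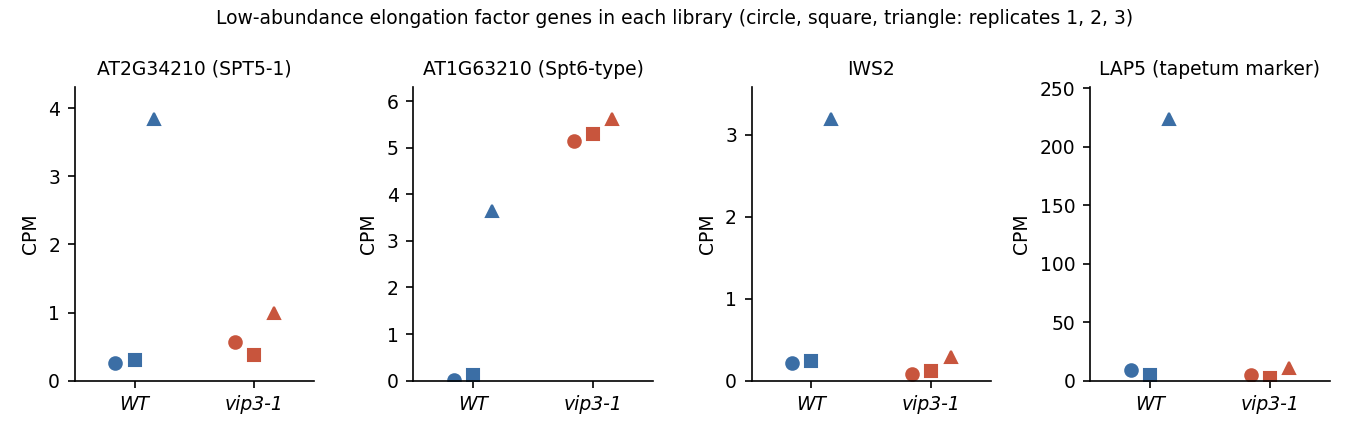
CPM (axis from 0) in each library of AT2G34210 (Spt5-type), AT1G63210 (Spt6-type), *IWS2* and, for comparison, the tapetum gene *LAP5*. AT2G34210, *IWS2* and *LAP5* are high in WT replicate 3 (triangle, 224 CPM for *LAP5*), whereas AT1G63210 is also high, at 5.14 to 5.62 CPM, in the 3 *vip3-1* libraries.

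Among 15 genes of RNA polymerase II subunits 8 were called higher and none lower, where 14.6% of all genes were called higher and 16.1% lower. Of the 15, 14 had a log2 fold change above 0, with a median of 0.28. *NRPB12*, a small zinc-binding subunit, gave 12.9, 13.1 and 11.05 CPM in WT and 17.5, 19.3 and 15.1 CPM in *vip3-1* (log2 fold change 0.48, adjusted p = 0.0265, edgeR). *NRPB6A* gave 80.8, 83.9 and 75.0 CPM in WT and 104, 116 and 99.2 CPM in *vip3-1* (log2 fold change 0.42, adjusted p = 0.0133). *NRPB7*, part of the stalk, and *NRPB10* rose by 0.39 and 0.36. The other 4 called genes rose by 0.26 to 0.30. *NRPB1*, the largest subunit, differed by 0.18 (SE 0.087, adjusted p = 0.160, edgeR). These calls were fragile. Without WT replicate 1, 2 or 3, 1, 2 and 5 of the 15 were called, all higher. Without *vip3-1* replicate 1, 2 or 3, 1, 0 and 5 were called, all higher. Of 20928 to 21045 genes tested, these fits called 2074, 1953 and 3956 higher without WT replicate 1, 2 or 3. They called 1481, 1282 and 1703 higher without *vip3-1* replicate 1, 2 or 3. With library sizes without TMM 2 were called, where 11% of all genes were called higher. With limma on log2(FPKM + 1) 1 was called, where 1739 of 18713 genes were called higher. At an adjusted p under 0.01 none was called, where 1017 of 20690 genes were called higher.

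Of 9 genes of the kinases that phosphorylate the C-terminal domain of the polymerase, 4 were called higher, where 14.6% of all genes were, and none lower, with a median log2 fold change of 0.16. The P-TEFb-type kinase *CDKC;2* gave 88.7, 91.1 and 94.4 CPM in WT and 112, 107 and 116 CPM in *vip3-1* (log2 fold change 0.29, adjusted p = 0.0153, edgeR). Its cyclin-type partners *CYCT1;5* and *CYCT1;4* rose by 0.38 (adjusted p = 0.00885) and 0.25 (adjusted p = 0.0475), and under the replicate block *CYCT1;4* was not called (adjusted p = 0.0516). *CDKD;1*, of the TFIIH-type kinases, gave 12.5, 13.4 and 9.95 CPM in WT and 19.0, 18.2 and 16.0 CPM in *vip3-1* (log2 fold change 0.57, adjusted p = 0.0218). *CYCT1;5* was called in all 16 alternatives, the other 3 in 4 to 11 of them. Without WT replicate 1, 2 or 3 there were 2, 2 and 5 calls in this list, and without *vip3-1* replicate 1, 2 or 3 there were 1, 1 and 2. All were higher, and the numbers of genes these fits called higher are given above with the polymerase subunits.

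Of the 5 other genes of the SKI list, none was called higher and 1 was called lower. The median log2 fold change was -0.12, and 1 of the 5 was above 0. With only 5 genes these counts are near the shares over all genes, of which 14.6% were called higher and 16.1% lower. The called gene was *RST1*, which in Arabidopsis acts with the RNA exosome, with 37.4, 37.8 and 41.8 CPM in WT and 30.0, 31.6 and 34.7 CPM in *vip3-1* (log2 fold change -0.28, adjusted p = 0.0435, edgeR). It was called in 1 of the 6 fits that left out a library, that without *vip3-1* replicate 3, and the adjusted p-values of the other 5 lay between 0.0510 and 0.134. AT3G46960, annotated as a SKI2-type RNA helicase, had a log2 fold change of -0.23 (SE 0.104, adjusted p = 0.132, edgeR).

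Among 11 further histone chaperone genes, 2 were called higher and 1 lower, with a median of 0.20. These counts are near the shares over all genes, of which 14.6% were called higher and 16.1% lower. *MSI1* gave 107, 111 and 81.0 CPM in WT and 134, 147 and 129 CPM in *vip3-1* (log2 fold change 0.46, adjusted p = 0.0390, edgeR), and *NAP1;2* differed by 0.34 (adjusted p = 0.0420). *ASF1B* fell from 34.1, 34.0 and 29.7 CPM to 24.4, 29.1 and 25.0 CPM (log2 fold change -0.32, adjusted p = 0.0476). With the replicate number as a block 6 of the 11 were called, 5 of them higher, where 35.7% of all genes were called. Without WT replicate 1 or 2 none of the 11 was called and without WT replicate 3 there were 3 calls, while without *vip3-1* replicate 1, 2 or 3 there were 0, 1 and 0. In either direction these fits called 21.3%, 19.8% and 38.5% of all genes without WT replicate 1, 2 or 3. They called 15.4%, 12.7% and 17.7% without *vip3-1* replicate 1, 2 or 3. In 12 commonly used reference genes the median log2 fold change was -0.02, none was called higher, and *PTB1* was called lower (-0.29, adjusted p = 0.0154, edgeR). That list gave 0, 0 and 2 calls without WT replicate 1, 2 or 3 and 0, 1 and 1 without *vip3-1* replicate 1, 2 or 3, and 2 with the replicate block. The shares of all genes called in these fits are those given for the chaperones.

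**Figure D5:**
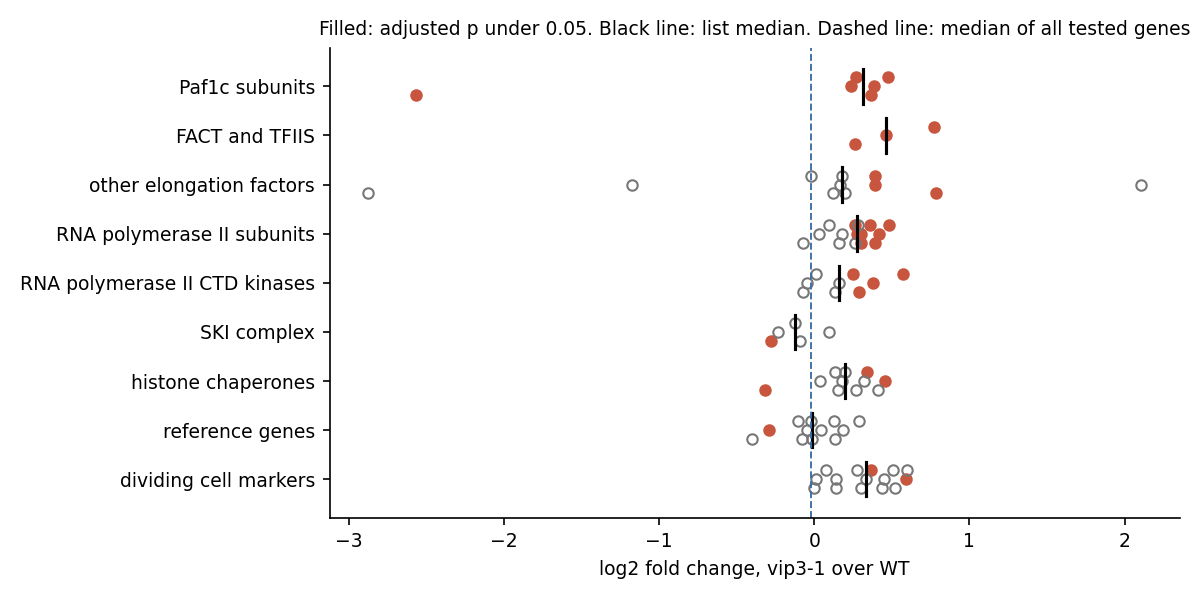
log2 fold change of *vip3-1* over WT for every tested gene of 9 lists, filled where the adjusted p was under 0.05, with the median of each list as a black line and that of all tested genes (-0.02) as a dashed line. From high to low the list medians are FACT with TFIIS (0.46), dividing cell markers (0.34), Paf1c with *VIP3* (0.32), RNA polymerase II subunits (0.28), histone chaperones (0.20), other elongation factors (0.18), CTD kinases (0.16), reference genes (-0.02) and the SKI list (-0.12).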

How the data were processed

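RNA-seq of 6 libraries, 3 per genotype, was analysed. Per the methods and labels, the authors removed adapters (Trimmomatic), aligned the reads to TAIR10 with TopHat2 2.0.6, Bowtie2 2.0.5 and SAMtools 1.2 and estimated expression with Cufflinks 2.1.1 (names and versions as in the submitters' processing notes). The deposited table of estimated counts holds fragments per gene, not scaled for depth. The deposited FPKM values are the authors' fragments scaled by transcript length and library. Another deposited table holds the authors' own comparison (mean levels, fold changes, p-values); only its gene positions were read, and 4951 of 4951 overlapped the RefSeq position of the same locus, so that RefSeq TAIR10.1 coordinates and sequences were used. The 2 tables hold 33554 genes, of which 32807 matched the reference by locus and 6919 were at 0 in all libraries. Of the count values 1.47% were not whole, none in the 9 genes, and counts were rounded, although the plan had named them counts.

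The comparison used edgeR 4.0.16 (R 4.3.3) with TMM, filterByExpr, a model of genotype alone, the quasi-likelihood test and Benjamini-Hochberg adjustment over all 20690 genes tested, and was tested on simulated data. Adjusted p-values are from edgeR unless another tool is named. The alternatives were library sizes without TMM, upper quartile scaling, scaling to reference genes, DESeq2 1.42.0 without its count outlier check and filter, no filter, at least 10 counts in every library, a replicate block, limma 3.58.1 on log2 FPKM with pseudocounts of 1 and 0.1 (genes with at least 1 FPKM in 3 libraries) or no filter, each library left out, and, for counts of calls, an adjusted p under 0.01. Log2 CPM for the spread used a prior count of 2. Figures were made with python 3.11.15 and matplotlib 3.10.9.

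Replicate numbers come from the titles. Across genes, deviations from the genotype means correlated at 0.217, 0.190 and 0.367 between same-numbered libraries and at -0.442 to 0.289 between the others, WT replicate 1 with *vip3-1* replicate 2 being the highest of these. All 3 same-numbered values were above the limit of 0.1 set for this check, but so was the 0.289 of libraries with different numbers. The check therefore cannot tell whether the numbers pair the libraries, and no source says that they were handled together. In FPKM, the ratios of *CDC73* and *ELF7* to the other Paf1c genes set replicate 1 at the same end in both genotypes. What the libraries of that number share was not tested. Pairing by number was used only in the replicate block. No replicate was a copy of another. Named genes are the 9 members, the called genes of each list (the 4 with the largest changes where more were called), the 3 genes on either side of *VIP3*, and the 5 genes closest in pattern to each of 2 profiles. *GTB1*, *IWS1*, *NRPB1*, AT3G46960, AT4G08225, AT1G79740, *CYP81D11*, *LAP5* and the 3 low-abundance elongation factor genes fall outside this rule and were named after their values were seen. The members and lists were chosen with earlier results of these data known.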

Additional observations from a re-analysis of the deposited data

How the results depend on the processing

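Over 16 alternatives every one of the 9 genes kept its direction. *VIP3*, *VIP4*, *CDC73*, *SPT16* and *SSRP1* passed an adjusted p of 0.05 in all 16, *VIP5* in 13, *TFIIS* in 11, *ELF7* in 8 and *VIP6* in 6. None of the genes read under the alternatives (these 9, the called genes of the pathway, chaperone and reference lists, *GTB1*, AT5G46030, AT1G63210 and *EMB2757*) reversed. The other named genes were not read there. The replicate block, which used the pairing by number, changed no call of the 9 genes (*VIP3* and all 8 others stayed called) and raised the calls over all genes from 6354 to 7388, ended the call of *CYCT1;4* (4 kinase calls to 3) and raised those of the histone chaperones from 3 to 6 and those of the reference genes from 1 to 2. Without TMM, 2270 genes were called higher and 4786 lower, against 3031 and 3323 with it. The calls then numbered 3 for the other Paf1c genes, 2 for the polymerase subunits, 2 for the kinases, 3 for the SKI list and 1 for the chaperones. With limma on log2(FPKM + 1), log2(FPKM + 0.1) and log2(FPKM + 1) unfiltered, 3639, 3603 and 3297 genes were called, with 3 of the other Paf1c genes, 1 polymerase subunit, 1 kinase, 0 SKI genes and 0 chaperones in each. The other elongation factors had 1 call without the FPKM filter, and the reference genes 0 with it. At an adjusted p under 0.01, 2163 genes were called, with 2 other Paf1c genes, 2 of FACT and TFIIS, 0 polymerase subunits, 1 kinase and 0 genes in each of the SKI, chaperone and reference lists. With no count filter, 5501 of 26634 genes were called, with 5 polymerase subunits and 0 chaperones. DESeq2 called 8084 of 20690 genes, with 6 other elongation factors and 2 reference genes. Scaling to reference genes, which called 6091 genes, left 2 chaperones called. Without TMM 2 of FACT and TFIIS were called.

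With 1 library left out, all genes called ranged from 2673 (without *vip3-1* replicate 2) to 8055 (without WT replicate 3), the other Paf1c genes from 2 to 5, FACT and TFIIS from 2 to 3, the other elongation factors from 3 to 7, the polymerase subunits from 0 to 5, the kinases from 1 to 5, the SKI list from 0 to 1, the chaperones from 0 to 3 and the reference genes from 0 to 2. The log2 fold change of *VIP3* ranged from -2.63 to -2.48. Leaving a library out also leaves fewer libraries to test. Other causes of these changes were not tested. AT1G63210 could not be fitted with at least 10 counts in every library, since it had 1 count in WT replicate 1. That gene and the other low-abundance elongation factor genes had few counts in WT replicates 1 and 2 and many more in WT replicate 3. The lowest value of any of the 9 genes was 307 counts.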

Other observations

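Genes whose pattern over the 6 libraries was most like that of the 5 other Paf1c subunit genes were looked up as a description. Among 13893 genes at a mean log2 CPM of 3 or more, the highest Pearson correlations of log2 CPM with the mean profile of *VIP4*, *VIP5*, *VIP6*, *ELF7* and *CDC73* were those of AT1G09620 (r = 0.999), *RPT5A*, AT1G75640, AT1G65150 and AT5G62960 (r = 0.998 for AT5G62960). *RPT5A*, a subunit gene of the 26S proteasome, was at 231 CPM in WT and 348 CPM in *vip3-1* (log2 fold change 0.59, adjusted p = 0.00302, edgeR). AT1G65150 shifted most of the 5, from 19.6 to 63.2 CPM (log2 fold change 1.69, adjusted p = 0.000192, edgeR). A correlation of at least 0.95 was reached by 821 genes.

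The genes most like *VIP3* in pattern were *SOS1* (r = 0.999), AT2G26860, AT3G12020, *AGL31* and *ATE2* (r = 0.998 for *ATE2*). *SOS1*, a plasma membrane sodium/proton antiporter, was at 16.5 CPM in WT and 9.68 CPM in *vip3-1* (log2 fold change -0.77, adjusted p = 0.00171, edgeR). *AGL31*, a MADS-box gene of the *FLC* family, was at 78.2 CPM in WT and 5.12 CPM in *vip3-1* (log2 fold change -3.93, adjusted p = 0.000192, edgeR). A correlation of at least 0.95 was reached by 838 genes. The 6 libraries fall into 2 genotypes, which is what such correlations mostly share, so they are given without a test.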
